A study of Mus musculus with 10 samples.

Results

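The octapeptide mutant Pax5 G183S was set against wild-type Pax5 in J558, a murine myeloma line that resembles plasma cells, in 7 of the 10 arrays of the study: 4 of G183S and 3 of wild type. The arrays were chosen by their labels alone. Cells of each group carried the retroviral vector MSCV-Puro-IRES-GFP with no insert (empty vector, 3 arrays), with wild-type Pax5, or with Pax5 G183S. All of them had therefore been infected, had been kept in puromycin for 5 to 7 days and had then been sorted by flow cytometry for green fluorescent protein and IgM. Total RNA (100 ng) was amplified and hybridised to Affymetrix whole-transcript arrays. The labels call the replicates independent and biological, and nothing in them says whether infections or sorts were shared, so p-values measure the spread between these samples. Expression of Pax5 came from a retroviral promoter in a cell line, and values are log2 expression, in which 1 unit is a change by a factor of 2. Of the plasma-cell markers, Xbp1 read between 12.42 and 13.06 and Sdc1 (syndecan-1, CD138) between 9.73 and 11.51 in all 10 arrays. Tnfrsf17 ranged from 7.72, with G183S, to 11.36, with empty vector. Among B-cell markers, Cd79b read between 11.9 and 12.84 and Cd79a between 4.60 and 5.53. Ms4a1 read 9.30, 10.42 and 10.21 with empty vector, 12.41, 12.40 and 12.41 with wild type and 12.34, 12.60, 11.47 and 12.56 with G183S. Whether cell identity changed was not tested. The Ighm probe set, for the heavy chain of the IgM used in the sort, read between 6.17 and 6.34 in all 10 arrays, which is below the level of 7.23 (the median of the genes' means) under which a gene is called dim here.

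Pax5 is the transcription factor that commits lymphoid progenitors to the B lineage. Its paired domain binds DNA, a C-terminal region activates transcription, and the octapeptide motif between them contacts Groucho (TLE) co-repressors, through which Pax5 also silences genes. Pax5 is shut off when a B cell becomes a plasma cell, where Prdm1, Irf4 and Xbp1 maintain antibody secretion, so a myeloma line offers a cell in which Pax5 can be added back. G183S replaces a glycine of the octapeptide with serine, and the series title concerns inherited PAX5 changes that raise the risk of pre-B cell acute lymphoblastic leukaemia. The comparison asks whether the mutant acted as the wild-type protein did.

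Upstream sequences from RefSeq (GRCm38.p6) are shown for Pxdc1 and Slamf6, both lower with G183S in every array. They were taken from the 27 genes separated in all 7 arrays by at least 1 log2 unit. Separated means that every G183S array lay on 1 side of every wild-type array. Of the 27, only genes with a single annotated start were considered, and genes on 2 of the chromosomes were left out. Pxdc1 and Slamf6 had the smallest p-values of those remaining. Nt5c2, Nckap1 and Klhl14 had smaller p-values than Slamf6 and are not shown. The 250 bases before the start of Pxdc1 lie at chr13:34652682-34652931 on the minus strand, and those of Slamf6 at chr1:171917212-171917461 on the plus strand, each written 5′ to 3′ along the gene with any TATAAA in capitals.
Pxdc1: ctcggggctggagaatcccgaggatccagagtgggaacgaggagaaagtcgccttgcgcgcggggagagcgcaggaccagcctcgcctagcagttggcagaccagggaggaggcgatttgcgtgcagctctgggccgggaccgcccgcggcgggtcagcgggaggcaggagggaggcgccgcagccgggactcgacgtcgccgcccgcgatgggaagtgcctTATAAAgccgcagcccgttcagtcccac
Slamf6: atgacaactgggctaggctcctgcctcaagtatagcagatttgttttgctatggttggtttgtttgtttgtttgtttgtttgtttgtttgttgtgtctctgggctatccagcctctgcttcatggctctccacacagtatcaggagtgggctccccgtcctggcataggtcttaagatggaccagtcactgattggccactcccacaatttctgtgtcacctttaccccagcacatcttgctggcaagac
The Pxdc1 sequence has a GC content of 69.6% and a TATAAA close to the start, and the Slamf6 sequence has a GC content of 48.4% and no TATAAA. The letters GCGTGAC, a core of paired-domain binding sites, were searched on both strands and were found in 0 of the 20 such upstream sequences available for the 27 separated genes. Over the genes on the arrays, 413 of 15613 sequences (2.645%) held them. TATAAA, also searched on both strands, was found in 2 of the 19 sequences of genes lower with G183S, against 11.177% of all. A missing match says only that these letters are not in this window.

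The mutant transcript was present at a level close to wild type. The Pax5 probe set (10512669) read 10.67, 10.09 and 10.05 with the wild-type construct and 10.22, 10.36, 9.38 and 9.96 with the mutant, against 7.10, 6.84 and 7.01 with empty vector. G183S replicate 3 was the lowest of the Pax5 arrays and replicate 1 lay inside the wild-type range. Mutant minus wild type came to -0.29 ± 0.23 SE, with a 95% confidence interval from -0.80 to 0.22 (limma adjusted p = 0.674), so a difference of this size in Pax5 level between the groups was within the spread. The probe set cannot tell mutant from wild-type transcript.

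G183S replicate 1 stood apart from the other G183S arrays. Across the 19937 genes its Pearson correlation was 0.9938, 0.9953 and 0.9909 with the wild-type arrays and 0.9882, 0.9853 and 0.988 with G183S replicates 2, 3 and 4; genes are not independent points, and these values carry no test. With all 10 arrays in 1 limma fit, 0 of 19937 genes (0%) passed an adjusted p of 0.05 between G183S and wild type, and 1891 genes (9.48%) had an unadjusted p under 0.05, of which 1012 (5.08% of all genes) were higher and 879 (4.41%) lower with G183S. Leaving out single arrays raised this count to 1113 for G183S replicate 1, to 3 for wild-type replicate 1 and to 1 for empty-vector replicate 1, and it was 0 for each of the other 7. limma with estimated array weights, which gave replicate 1 a weight of 0.33, called 2752 genes, and a linear model without moderation called 1. For this reason many results below are given for every array, and as far as possible for replicate 1 by itself. Other genes are given by their difference alone, which does not show whether it rests on 1 array.

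A small group of genes differed from wild type in all 4 G183S arrays. Genes were counted where every G183S array lay on 1 side of every wild-type array and the difference of means was at least 1 log2 unit both with and without replicate 1. There were 23 such genes below wild type (0.115% of 19937) and 4 above (0.0201%). With no minimum size, the 4 G183S arrays lay below wild type for 831 genes (4.17%) and above it for 464 (2.33%). The count of 27 was 177 without G183S replicate 1, 95 without wild-type replicate 3 and 47 without wild-type replicate 2. Of the 23 genes below, 18 passed as lower in the fit of 9 arrays that leaves out replicate 1, against 1.51% of all genes, and 7 were dim. Of the 4 above, 2 passed there as higher, against 4.07% of all genes, and 1 was dim. Over all 19937 genes 9968 were dim. The 27 genes were selected for separation in these same arrays, so passing in that fit is no separate support. In the fit of all 10 arrays none of the 27 passed, and their adjusted p-values were 0.263 or more.

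Surface and signalling molecules of lymphocytes were among the genes lower with G183S. Slamf6 (Ly108), a SLAM-family receptor of lymphocytes that is dim here, read 7.77, 6.89 and 7.51 with wild type and 6.43, 5.75, 5.46 and 5.85 with G183S. Replicate 1 was the highest of the 4 and still below all wild-type arrays, and the empty-vector arrays read 5.50, 5.27 and 5.62. The log2 difference of Slamf6 was -1.52 ± 0.25 SE (limma adjusted p = 0.263) with all arrays and -1.70 ± 0.21 without replicate 1 (adjusted p = 0.00913). Fcrla, an intracellular Fc receptor-like protein of B cells, read 10.87, 10.81 and 10.45 with wild type and 10.19, 9.35, 8.22 and 9.23 with G183S. Its log2 difference was -1.46 ± 0.38 SE, replicate 1 was the closest to wild type, and empty-vector levels were 8.64, 9.32 and 9.38. Siglecg, an inhibitory sialic acid-binding receptor of B cells just short of the 1-unit minimum, read 8.88, 8.29 and 8.30 with wild type and 7.81, 7.47, 7.50 and 7.39 with G183S. The G183S arrays of Siglecg lay between the wild-type arrays and those of the empty vector, at 6.81, 6.85 and 6.74, and the groups differed by -0.95 ± 0.15 log2 units (SE; limma adjusted p = 0.263, and 0.0111 without replicate 1). Traf5, an adaptor of tumour necrosis factor receptors, read 8.81, 9.23 and 9.54 with wild type and 7.30, 7.99, 7.84 and 8.51 with G183S, where replicate 1 was the lowest. The costimulatory ligand Cd86, dim in all arrays, read 5.78, 5.74 and 5.99 with wild type and 5.31, 5.36, 4.98 and 5.25 with G183S. The log2 difference of Cd86 was -0.61 ± 0.10 SE with all arrays (limma adjusted p = 0.263) and -0.64 ± 0.11 without replicate 1 (adjusted p = 0.0182).

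For Pdpn and Rassf6 the 4 G183S arrays lay within 0.2 log2 units of the empty-vector range, and for Pxdc1 and Klhl14 they overlapped it. Pdpn (podoplanin, a mucin-like surface glycoprotein) read 8.81, 7.82 and 7.40 with wild type, 6.68, 6.69, 6.77 and 6.64 with G183S, and 6.83, 6.66 and 6.77 with empty vector. The 4 G183S arrays of Pdpn spanned little more than 0.1 log2 units, with replicate 1 in their midst. Rassf6, a Ras-association domain protein linked to cell death, read 8.21, 6.45 and 6.62 with wild type, 5.25, 5.32, 5.21 and 5.16 with G183S, and 5.15, 5.19 and 5.21 with empty vector. The log2 difference of Rassf6 was -1.86 ± 0.34 SE with all arrays and -1.30 without wild-type replicate 1, its highest array, where it passed (limma adjusted p = 7.198e-04). Pxdc1, which has a phospholipid-binding PX domain, read 9.63, 10.09 and 10.07 with wild type and 8.03, 8.71, 7.30 and 8.10 with G183S. The empty-vector arrays of Pxdc1 read 7.85, 7.96 and 8.48, and the log2 difference from wild type was -1.90 ± 0.29 SE (limma adjusted p = 0.263, and 0.018 without replicate 1). Sorbs2, an adaptor of the actin cytoskeleton, had the largest difference at -2.41 ± 0.59 SE. Its wild-type arrays read 10.29, 7.89 and 7.53, so that 1 of them was far above the others, and its G183S arrays read 6.56, 6.82, 5.34 and 5.93, replicates 1, 2 and 4 above and replicate 3 below the empty-vector arrays at 5.62, 5.48 and 5.40. Without wild-type replicate 1, its highest array, the log2 difference of Sorbs2 was -1.55. Klhl14, a BTB and kelch domain protein, read 6.32, 6.45 and 7.14 with wild type and 5.47, 5.50, 5.71 and 5.57 with G183S, where the empty-vector arrays read 5.57, 5.35 and 5.60. For Pdpn, Rassf6, Sorbs2 and Klhl14 the low groups are dim on these arrays, as are 3 wild-type values of Klhl14 and 2 of Rassf6, and differences between dim values are compressed on this scale.

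St3gal6, Fhod3, Plxnc1, Map2 and Gng3 read between the empty vector and wild type in all 4 G183S arrays. St3gal6, a sialyltransferase that caps glycan chains, read 11.07, 10.82 and 10.60 with wild type, 10.11, 9.62, 9.31 and 9.65 with G183S, and 7.43, 7.20 and 6.83 with empty vector. All 4 G183S arrays were well above the empty vector and below wild type, with a log2 difference from wild type of -1.16 ± 0.20 SE (limma adjusted p = 0.279, and 0.0107 without replicate 1). Fhod3, a formin that assembles actin filaments, read 10.37, 9.74 and 9.94 with wild type and 9.52, 9.08, 7.82 and 8.70 with G183S, against 6.46, 6.76 and 6.75 with empty vector. Plxnc1, a semaphorin receptor, read 9.97, 9.67 and 10.61 with wild type and 9.52, 9.54, 7.43 and 9.50 with G183S. For Plxnc1 replicate 3 carried most of the difference of -1.09 ± 0.48 SE, and replicate 1 was like replicates 2 and 4; the empty-vector arrays read 5.79, 5.41 and 5.88, and without replicate 3 the difference was -0.57. Map2, a microtubule-associated protein, read 9.68, 9.04 and 8.85 with wild type and 8.76, 8.39, 7.51 and 7.96 with G183S, and Gng3, a G protein gamma subunit, read 9.67, 8.31 and 8.92 and then 7.98, 7.72, 7.10 and 7.93. Cenpf, a kinetochore protein of dividing cells, read 10.11, 9.91 and 9.68 with wild type, 9.55, 8.85, 8.03 and 8.74 with G183S and 8.23, 8.31 and 8.60 with empty vector, so that replicate 3 was below the empty-vector arrays and the others above them. In Cenpf replicate 1 lay only just below the wild-type range, and the log2 difference was -1.11 ± 0.28 SE with it and -1.36 ± 0.21 without it (limma adjusted p = 0.015 without it). The comparisons of G183S with wild type and of the empty vector with wild type share the wild-type arrays, so the positions between them are given as levels only.

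For Nt5c2 and Gk5 the G183S arrays lay beyond the empty vector as well. Nt5c2, a cytosolic nucleotidase that dephosphorylates purine nucleotides, read 10.41, 9.86 and 10.06 with wild type, 9.63 in each of the 3 empty-vector arrays, and 9.16, 8.34, 8.96 and 8.77 with G183S. All 4 G183S arrays of Nt5c2 were below both other groups, replicate 1 being the nearest to them, and the log2 difference from wild type was -1.30 ± 0.18 SE (limma adjusted p = 0.263, and 0.00913 without replicate 1). Rbpms, an RNA-binding protein, read 8.96, 8.79 and 9.69 with wild type, 8.18, 8.26 and 8.07 with empty vector, and 7.47, 7.33, 8.47 and 7.76 with G183S, whose replicate 3 was above the empty vector. Hsd17b13, a dehydrogenase of lipid droplets, read 8.52, 7.54 and 7.68 with wild type and 6.51, 6.89, 6.40 and 6.10 with G183S, which overlapped the empty-vector arrays at 6.73, 6.89 and 7.19. Gk5, of the glycerol kinase family, read 8.59, 8.42 and 8.12 with wild type, 8.10, 8.12 and 7.84 with empty vector and 7.21, 6.86, 7.83 and 7.42 with G183S. The remaining genes below wild type in all 4 arrays were Pinlyp (log2 difference -1.79), Mgarp (-1.32), Pcnx2 (-1.23), Tmc7 (-1.12) and the desmosome gene Pkp2 (-1.01). Leaving out wild-type replicate 1 took the differences of Pinlyp, Tmc7 and Pcnx2 to -1.05, -0.57 and -0.79, and leaving out wild-type replicate 3 took that of Pkp2 to -0.47. Of these 5 genes only Pcnx2 passed without replicate 1 (limma adjusted p = 0.04).

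Nckap1 had the largest difference among the 4 genes above wild type in all G183S arrays. Nckap1, a subunit of the WAVE complex that drives actin branching, read 8.29, 9.17 and 8.63 with wild type, 9.08, 9.17 and 8.87 with empty vector, and 9.86, 10.53, 10.09 and 10.55 with G183S. The 4 G183S arrays were above all 6 others, replicate 1 the lowest of them, with a log2 difference from wild type of 1.56 ± 0.22 SE (limma adjusted p = 0.263, and 0.00936 without replicate 1). Zmat3, an RNA-binding zinc finger protein induced by p53, read 8.16, 7.995 and 8.22 with wild type and 8.57, 9.41, 9.66 and 9.23 with G183S, while the empty-vector arrays read 9.15, 8.86 and 8.77. Replicate 1 was the lowest G183S array of Zmat3, by more than the whole wild-type range below the next, and the log2 difference was 1.09 ± 0.22 SE. The interferon-inducible PYHIN gene Ifi207 (log2 difference 1.36) and the predicted gene Gm5486 (1.41) were the other genes, and neither passed without replicate 1 (limma adjusted p = 0.087 and 0.0517). Without wild-type replicate 1 the difference of Ifi207 was 0.77.

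Under 1 log2 unit, a further 11 genes were named by their size among those above wild type in all 4 G183S arrays with an unadjusted p under 0.05. Ly6e, an interferon-inducible surface protein, read 11.54, 11.69 and 12.09 with wild type, 12.84, 12.71 and 12.78 with empty vector, and 12.60, 12.54, 13.11 and 12.76 with G183S. G183S and empty-vector arrays overlapped for Ly6e, replicate 1 lay among them, and the log2 difference from wild type was 0.98 ± 0.15 SE (limma adjusted p = 0.263, and 0.016 without replicate 1). Smad3, a transducer of TGF-beta signals, read 7.39, 7.54 and 8.03 with wild type and 8.17, 8.22, 9.16 and 8.74 with G183S. Abcb1b, a multidrug efflux transporter, read 9.38, 9.68 and 9.61 with wild type and 9.86, 10.43, 10.61 and 10.38 with G183S, a log2 difference of 0.77 ± 0.17 SE. The log2 differences of the others were 0.92 for Cplane1, 0.91 for Rassf8, 0.91 for Map7d2, 0.90 for Rgs1, 0.83 for Susd2, 0.83 for Ifi202b, 0.78 for Pygm and 0.75 for H2-M1. For Rgs1, which shortens G protein signals, and Ifi202b, replicate 1 was above or close to the highest of the other G183S arrays, and the differences without it were 0.82 and 0.61.

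**Figure D1:**
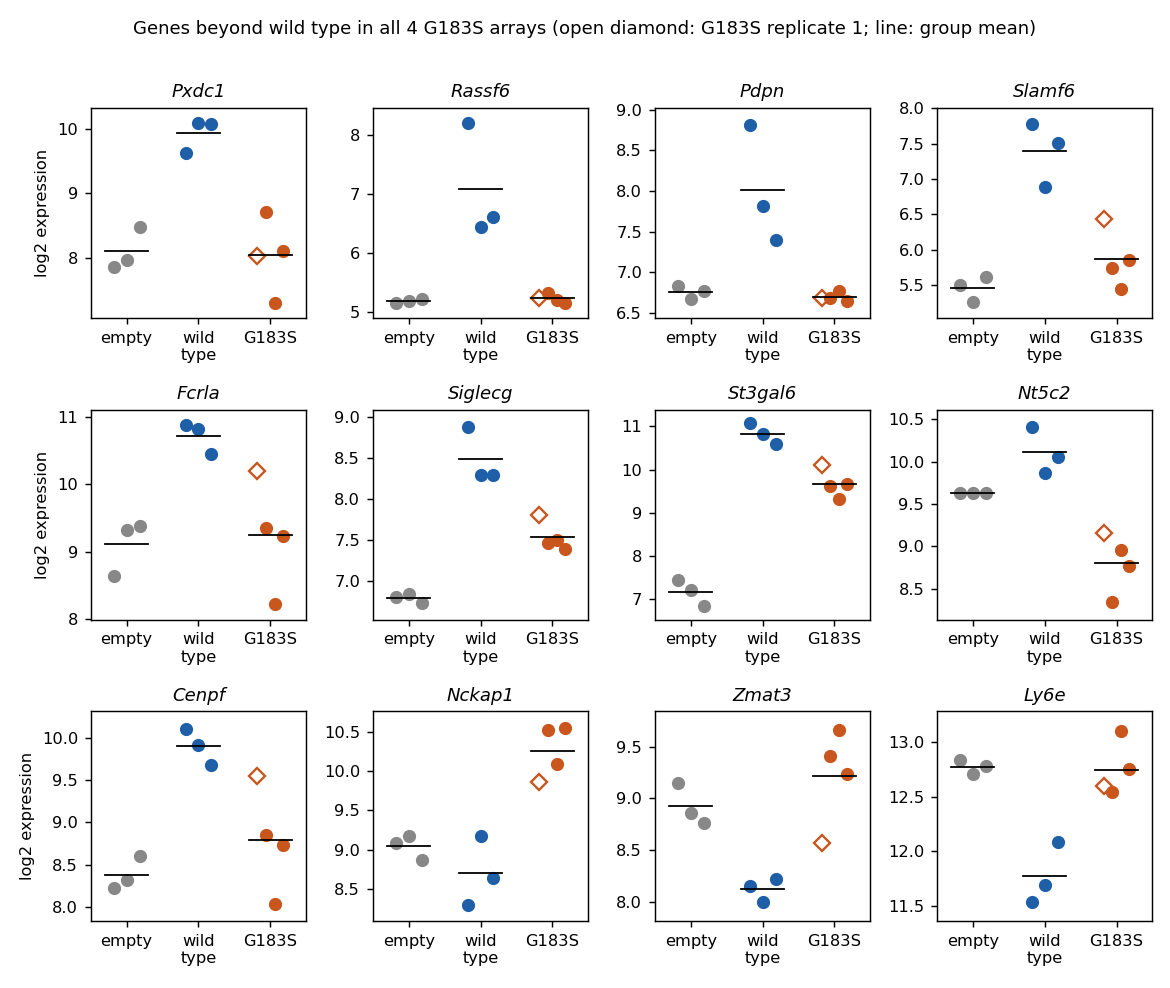
Log2 expression of 12 genes in each array, for cells with empty vector, wild-type Pax5 and Pax5 G183S; each point is 1 array, the open diamond is G183S replicate 1, the line is the group mean and each panel has its own axis range. All G183S points lie on 1 side of all wild-type points, and those of Pdpn and Rassf6 sit at the empty-vector level while those of Nt5c2 and Nckap1 lie beyond it.

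Many more genes differed when only G183S replicates 2 to 4 were set against wild type. In the limma fit of 9 arrays, 811 genes (4.07% of 19937) passed as higher and 302 (1.51%) as lower, and 4427 had an unadjusted p under 0.05. Of those that passed, 83 higher and 49 lower genes differed by at least 1 log2 unit. The array left out was chosen because it stood apart, so these counts stand beside the 0 calls with all arrays and not in their place. They also depended on the other arrays: the count of 1113 was 909, 515 and 502 when empty-vector replicate 1, 2 or 3 was left out in turn. Leaving out wild-type replicate 1, 2 or 3 gave 419, 188 or 3068, and leaving out G183S replicate 2, 3 or 4 gave 144, 226 or 52. With only the wild-type and G183S arrays in the fit the limma count was 163. With replicate number as a block, limma called 0 genes, with 2821 at an unadjusted p under 0.05. A linear model without moderation called 0 genes, with 3845 at an unadjusted p under 0.05. The direction of all 1113 was the same in each of the 9 fits with a further array left out. Empty-vector arrays do not enter the difference of means, so leaving them out cannot change a direction. The genes were also selected in these same arrays, so the kept directions are a description and no measure of stability.

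Replicate 1, which that fit did not use, showed few of these differences. Among the 811 genes called higher, replicate 1 lay above all wild-type arrays for 83 (10.2%), inside their range for 451 (55.6%) and below it for 277 (34.2%). Over all 19937 genes it lay above for 15.1%, inside for 57.4% and below for 27.5%. The share above wild type was thus lower among the called genes than over all genes. Among the 302 called lower, replicate 1 was below all wild-type arrays for 85 (28.1%), inside for 173 (57.3%) and above for 44 (14.6%), close to the shares of 27.5%, 57.4% and 15.1% over all genes. The median difference from wild type in the higher set was 0.55 for replicates 2 to 4 and -0.09 for replicate 1; in the lower set it was -0.59 and -0.01. Replicate 1 and replicates 2 to 4 were compared with the same wild-type arrays. Those arrays differed among themselves in the same genes, with median distances from their mean of -0.12, -0.02 and 0.15 for replicates 1, 2 and 3 in the higher set and 0.17, 0.01 and -0.17 in the lower set.

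**Figure D2:**
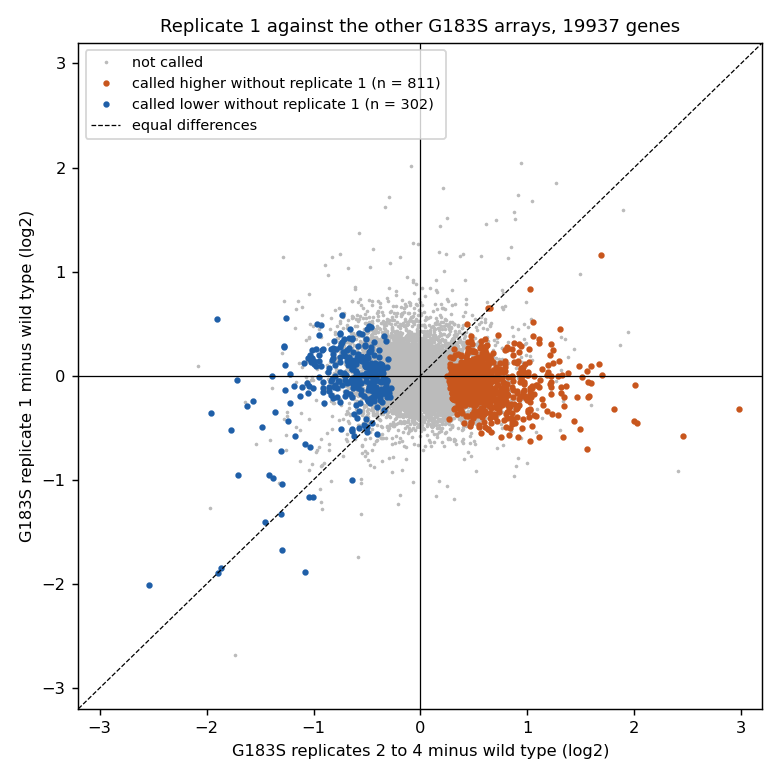
Log2 difference from the wild-type mean of G183S replicate 1 (vertical axis) against that of the mean of G183S replicates 2 to 4 (horizontal axis), 1 point per gene for 19937 genes; coloured points passed limma's adjusted p of 0.05 in the fit without replicate 1, 811 higher and 302 lower, and the dashed line marks equal differences. The median of the coloured points on the vertical axis is -0.09 for the higher and -0.01 for the lower genes.

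The genes with the largest differences in replicates 2 to 4 that replicate 1 did not share were led by Lrrc8e. Lrrc8e, a subunit of volume-regulated anion channels, read 6.01, 6.83 and 7.77 with wild type and 6.56, 9.72, 10.15 and 9.69 with G183S. Replicate 1 lay among the wild-type arrays and the other 3 lay about 2 or more log2 units above them, for a log2 difference of 2.98 ± 0.44 SE without replicate 1 (limma adjusted p = 0.0139) and 2.16 ± 0.80 with it (0.508). Lrrc8e was also high with empty vector, at 9.54, 8.46 and 8.17. Icam1, the adhesion ligand of lymphocyte integrins, read 9.13, 10.09 and 11.04 with wild type and 10.17, 11.61, 11.72 and 11.71 with G183S. With empty vector Icam1 read 10.93, 11.05 and 10.65. The wild-type arrays of Icam1 were spread over more than 1 log2 unit, and the log2 difference was 1.59 ± 0.37 SE without replicate 1 (limma adjusted p = 0.0407). Acod1, the enzyme that makes itaconate in activated macrophages, read 7.40, 8.37 and 9.39 with wild type and 8.07, 10.03, 10.41 and 10.15 with G183S. With empty vector Acod1 read 9.22, 8.80 and 8.08. Celsr2, an adhesion receptor of the cadherin superfamily, read 7.15, 7.41 and 7.58 with wild type and 7.39, 9.08, 9.16 and 8.99 with G183S. The same pattern held for Tmem184a (2.02 without replicate 1), the small GTPase Rem2 (2.01), Pcbd1 (1.99), the receptor gene Amhr2 (1.67), the mast-cell protease gene Mcpt1 (1.59) and Renbp (1.58, all log2 differences).

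Tnfrsf17 was among the genes with the largest differences in the other direction. Tnfrsf17 (BCMA), a survival receptor of plasma cells, read 9.88, 11.12 and 9.89 with wild type, 10.25, 7.72, 8.96 and 9.04 with G183S, and 10.83, 11.04 and 11.36 with empty vector. Replicates 2 to 4 of Tnfrsf17 were the lowest of all 10 arrays, while replicate 1 was inside the wild-type range; the log2 difference was -1.72 ± 0.40 SE without it (limma adjusted p = 0.0413) and -1.30 ± 0.51 with it (0.508). Il5ra, the interleukin-5 receptor alpha chain, read 9.31, 9.50 and 8.42 with wild type and 8.78, 7.98, 6.52 and 7.86 with G183S. The linker histone gene H1f5 read 12.19, 11.73 and 11.16 with wild type and 11.79, 10.45, 10.21 and 10.60 with G183S, and the core histone gene H2bc8 differed by -1.27 without replicate 1. Cdc25c, the phosphatase that starts mitosis, read 9.46, 9.22 and 8.59 with wild type and 9.38, 7.98, 7.46 and 8.03 with G183S, a log2 difference of -1.27 ± 0.25 SE without replicate 1 (limma adjusted p = 0.0259). For Zfp979, a zinc finger gene, replicate 1 lay above all wild-type arrays at 8.23, and the others read 5.26, 6.02 and 6.03. Gpx6 (-1.96 without replicate 1), Rnf128 (-1.57), Crisp3 (-1.39) and Foxq1 (-1.27, all log2 differences) had replicate 1 inside the wild-type range.

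**Figure D3:**
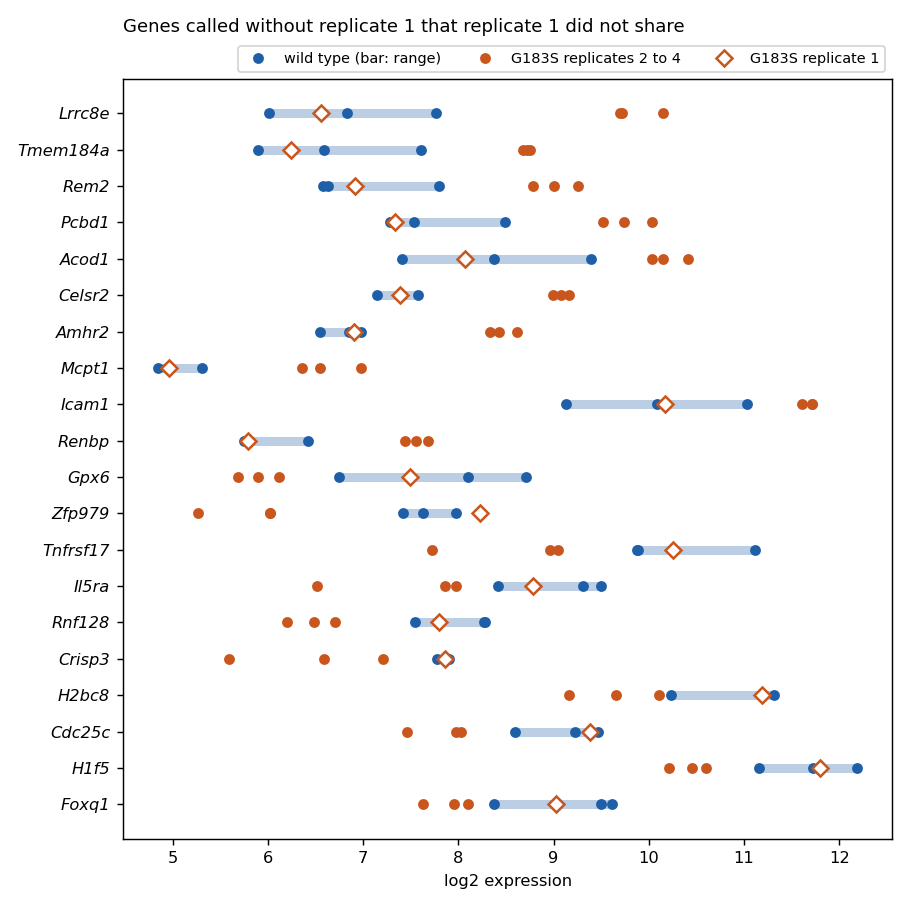
Log2 expression per array of the 10 genes with the largest positive and the 10 with the largest negative difference among those called without replicate 1 that replicate 1 did not share; blue points and bars are the 3 wild-type arrays and their range, filled orange points are G183S replicates 2 to 4 and the open diamond is replicate 1. The diamond lies within the blue bar for 19 genes and above it for Zfp979, at 8.23.

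Single genes were highest or lowest in replicate 1. It lay above the other 6 arrays of the comparison, with the other G183S arrays not all beyond wild type, for 1499 genes (7.52%), and below them for 2109 (10.6%). By the same rule replicates 2, 3 and 4 lay above for 8.99%, 16.2% and 12.8% of genes and below for 14%, 14% and 13.7%, so replicate 1 stood alone in fewer genes than the others did. The genes below were chosen for the distance of replicate 1 and are a description. H2-Ea, which encodes the I-E alpha chain of MHC class II, read 11.06, 10.47 and 9.16 with wild type and 11.37, 9.45, 8.62 and 8.77 with G183S, so that replicate 1 was the highest of the 7. Arhgdib read 8.20 in replicate 1 and between 5.69 and 6.59 in the other 6 arrays. Phlda1 read 10.25 in replicate 1, above 7.93, 10.04 and 9.25 with wild type, and 8.20, 8.41 and 8.34 in the other G183S arrays. Ocm (7.99) and Pcp4 (8.67) were likewise highest in replicate 1. Ndrg1, a gene induced by hypoxia and stress, read 8.36 in replicate 1, 10.20, 10.08 and 10.32 in the other G183S arrays, and 8.53, 8.996 and 10.44 with wild type. Phlpp1 (6.19), Cystm1 (8.63), Rab7b (6.37) and Ddias (9.25) were also lowest in replicate 1. Without replicate 1 the log2 difference of Arhgdib turned from 0.44 to -0.09, that of Ocm from 0.16 to -0.33, that of Pcp4 from 0.21 to -0.30 and that of Phlpp1 from -0.06 to 0.32; none of these passed.

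Gene lists were read by counts and medians, beside a median of -0.02 over all genes. Of all 19937 genes, 8678 were higher and 11259 lower with G183S, and counts of members by direction in each list stand against these. Genes of mitosis and the kinetochore were lower with G183S in all 35 measured members, and 21 had an unadjusted p under 0.05, against 4.41% of all genes in that direction. The median log2 difference was -0.60 with all G183S arrays, -0.78 for replicates 2 to 4 and -0.07 for replicate 1. The mean level of the list was 10.93, 10.88 and 10.58 with wild type, 10.72, 10.34, 9.69 and 10.16 with G183S, and 9.71, 10.23 and 10.26 with empty vector. Replicate 1 thus lay inside the wild-type range and the other G183S arrays below it. In all, 10 of the 35 were below wild type in all 4 G183S arrays, against 4.17% of all genes, and 12 passed as lower without replicate 1, against 1.51%. Of those 12, replicate 1 was below wild type for Cenpf, Tpx2 and Plk1, inside for 8 and above for Kif20a. Tpx2, which activates the spindle kinase Aurora A, read 11.19, 11.14 and 10.88 with wild type and 10.86, 10.48, 9.98 and 10.31 with G183S. Plk1, a kinase of mitotic entry, read 12.24, 12.18 and 12.07 with wild type and 12.04, 11.44, 10.86 and 11.45 with G183S. Cyclin B2 (Ccnb2) read 12.37, 12.22 and 11.70 with wild type and 12.25, 11.20, 11.02 and 11.01 with G183S, with replicate 1 at the wild-type level. Mad2l1, of the spindle checkpoint, read 11.58, 11.65 and 11.43 with wild type and 11.32, 11.14, 10.81 and 11.02 with G183S, a log2 difference of -0.48 ± 0.15 SE. Aspm, a spindle pole protein, differed by -0.85 ± 0.28 SE, and Birc5 (survivin) by -0.70 ± 0.34. Of 31 measured genes of DNA replication, 2 (Tyms and Gins2) had an unadjusted p under 0.05 in the lower direction, 0 passed without replicate 1, and the median was -0.08. In bulk RNA, fewer cells in a state and less RNA per cell cannot be told apart.

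Of 22 measured genes of the p53 response, 9 passed as higher without replicate 1, against 4.07% of all genes, and 8 had an unadjusted p under 0.05 as higher with all arrays, against 5.08%. The mean of the list was 8.71, 8.88 and 8.94 with wild type, 8.74, 9.21, 9.23 and 9.19 with G183S and 9.07, 8.99 and 8.96 with empty vector. Of the 9 genes, replicate 1 was above wild type for Zmat3 and Ei24, inside its range for 6 and below it for Sesn2. Ei24, an endoplasmic reticulum protein induced by p53, read 10.18, 10.31 and 10.39 with wild type and 10.57, 11.21, 11.12 and 10.98 with G183S, a log2 difference of 0.67 ± 0.13 SE (limma adjusted p = 0.395, and 0.00745 without replicate 1). Ccng1 (cyclin G1) read 11.46, 11.84 and 12.15 with wild type and 11.81, 13.02, 13.11 and 12.99 with G183S. The death receptor Tnfrsf10b read 8.46, 8.54 and 9.11 with wild type and 8.74, 9.79, 10.05 and 9.85 with G183S. Bbc3 (Puma), which starts apoptosis, differed by 1.09 ± 0.18 SE without replicate 1, and Mdm2, the ubiquitin ligase that restrains p53, by 0.87 ± 0.17. Over the whole list 13 members were higher and 9 lower, and the median was 0.10.

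NF-kB subunits, regulators and targets were higher in 21 of 26 measured members, 5 of them with an unadjusted p under 0.05 against 5.08% of all genes, and the median log2 difference was 0.33. Among the 22 reference genes, 5 were also higher and 0 lower at an unadjusted p under 0.05, with a median of -0.01. The list mean was 8.11, 8.52 and 8.85 with wild type, 8.47, 8.97, 8.98 and 8.99 with G183S, and 8.66, 8.60 and 8.45 with empty vector. The wild-type arrays were spread over more than the difference between the groups, and replicate 1 lay in their midst. Without replicate 1, 5 members passed as higher, against 4.07% of all genes (Traf1, Icam1, Nfkb2, Relb and Traf2), and replicate 1 was inside the wild-type range for each. Nfkb2, the precursor of the p52 subunit, read 8.91, 9.13 and 9.60 with wild type and 9.20, 9.89, 9.91 and 9.98 with G183S. Traf1, an adaptor and target of the pathway, read 6.05, 6.71 and 6.82 and then 6.64, 7.29, 7.87 and 7.35. Relb differed by 0.75 ± 0.16 SE and Traf2 by 0.66 ± 0.15 without replicate 1. Among the 32 interferon-stimulated genes, 4 had an unadjusted p under 0.05 as higher (against 5.08% of all genes) and 1 (against 4.07%), the peptide transporter Tap1, passed without replicate 1, with 9.15, 9.76 and 10.17 with wild type and 9.69, 10.92, 11.06 and 10.96 with G183S. Among the 25 immediate early genes 3 passed as higher without replicate 1, against 4.07% of all genes, of which Ier3 differed by 1.001 ± 0.19 SE there, while Egr1 read 9.13, 9.44 and 8.71 with wild type and 8.33, 8.49, 8.45 and 8.77 with G183S.

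Plasma-cell genes were lower in 18 of 24 members, with a median of -0.18 over all G183S arrays, -0.30 for replicates 2 to 4 and 0.16 for replicate 1. Without replicate 1, 4 of the 24 passed as lower (Tnfrsf17, Irf4, Prdm1 and Edem1), against 1.51% of all genes, and 1 as higher (Il6ra), against 4.07%. The list mean was 11.33, 11.36 and 11.07 with wild type and 11.42, 10.87, 10.98 and 11.06 with G183S, replicate 1 above and the others below the wild-type range. Prdm1 (Blimp1), the repressor that fixes the plasma-cell state, read 11.12, 10.83 and 10.49 with wild type, 11.14, 10.16, 9.96 and 10.13 with G183S, and 10.46, 10.40 and 10.51 with empty vector. Replicate 1 of Prdm1 was above all wild-type arrays and the others below the other 7 arrays, with a log2 difference of -0.73 ± 0.14 SE without replicate 1 (limma adjusted p = 0.0241) and -0.47 ± 0.26 with it (0.565). Irf4, a transcription factor that plasma cells need, read 12.59, 12.54 and 12.20 with wild type and 12.59, 11.88, 11.34 and 11.62 with G183S, with replicate 1 at the top of the wild-type range and the others below it. Il6ra, a chain of the interleukin-6 receptor, read 8.38, 9.13 and 9.51 with wild type, 9.05, 10.45, 10.73 and 10.53 with G183S, and 10.92, 10.79 and 10.71 with empty vector. Edem1, of endoplasmic reticulum quality control, differed by -0.39 ± 0.09 SE without replicate 1.

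Of 27 Pax5-activated genes, 4 had an unadjusted p under 0.05 as lower, against 4.41% of all genes, and 2 as higher, against 5.08%. The median was -0.06, and the list mean was 8.40, 8.45 and 8.46 with wild type, 8.48, 8.38, 8.11 and 8.34 with G183S and 8.05, 8.01 and 8.01 with empty vector. Replicates 2 to 4 were below the wild-type range, replicate 3 the lowest, replicate 1 was above it, and all 4 were above the empty vector. Siglecg and Irf4, 2 of the 27, passed as lower without replicate 1, against 1.51% of all genes. Blnk, the adaptor that links the B-cell receptor to its effectors, read 12.19, 11.84 and 11.91 with wild type, 11.51, 11.51, 11.06 and 11.64 with G183S and 10.30, 11.02 and 10.89 with empty vector. All 4 G183S arrays of Blnk were below wild type, by 0.55 ± 0.19 log2 units (SE), short of the threshold with and without replicate 1 (limma adjusted p = 0.499 and 0.13). Fcgr2b, the inhibitory Fc receptor of B cells, read 12.02, 12.07 and 12.59 with wild type, 12.27, 12.21, 12.07 and 12.26 with G183S and 10.50, 10.35 and 10.10 with empty vector. The difference between the Pax5 groups was -0.02 with a 95% confidence interval from -0.34 to 0.29. H2-Ob, a chain of the MHC class II chaperone H2-O, read 8.99, 8.47 and 8.62 with wild type, 8.80, 8.94, 8.28 and 9.08 with G183S and 6.61, 6.39 and 6.28 with empty vector, a difference of 0.08 with an interval from -0.34 to 0.50. The differences of Fcgr2b and H2-Ob changed sign when some single arrays were left out. Cd36, a scavenger receptor, read 11.14, 11.52 and 10.65 with wild type, 11.82, 10.22, 8.86 and 10.80 with G183S and 4.73, 4.82 and 4.82 with empty vector; its interval ran from -1.89 to 0.53. Irf8, a transcription factor of B and myeloid cells, read 10.53, 10.08 and 10.17 with wild type, 10.31, 9.99, 9.05 and 9.91 with G183S and 7.92, 8.07 and 7.91 with empty vector.

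Of 33 Pax5-repressed genes, 1 was higher and 3 were lower at an unadjusted p under 0.05, against 5.08% and 4.41% of all genes, and the median was -0.09. Prdm1 alone passed without replicate 1, as lower, against 1.51% of all genes. Lmo2, a progenitor transcription cofactor, read 11.82, 11.96 and 12.36 with wild type, 11.36, 11.42, 10.19 and 11.69 with G183S, and 10.11, 10.94 and 10.38 with empty vector. Ahr, the aryl hydrocarbon receptor, read 10.31, 10.33 and 9.21 with wild type and 9.56, 9.24, 7.72 and 9.14 with G183S. With empty vector Ahr read 7.28, 7.59 and 7.53. For both Lmo2 and Ahr, all wild-type arrays were thus above all empty-vector arrays, so neither was lower with wild-type Pax5 in these cells. Among the 15 measured Groucho and histone deacetylase co-repressors, Tle3 alone passed without replicate 1, as lower, against 1.51% of all genes. Tle3 read 11.37, 11.30 and 11.23 with wild type, 11.12, 11.09 and 11.15 with empty vector, and 10.97, 11.09, 10.87 and 10.91 with G183S. All 4 arrays of Tle3 were below wild type, by 0.34 ± 0.07 log2 units (SE; limma adjusted p = 0.395, and 0.038 without replicate 1). Tle1 differed by 0.26 ± 0.11 SE and Tle4 by 0.08 ± 0.11, neither of which passed.

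B-cell receptor signalling genes (29 measured) had 6 lower and 0 higher members at an unadjusted p under 0.05, against 4.41% and 5.08% of all genes, and 2, Siglecg and Tec, passed as lower without replicate 1, against 1.51%. The list mean was 9.22, 9.29 and 9.24 with wild type and 9.21, 9.01, 8.94 and 9.02 with G183S, all 4 below the wild-type range and replicate 1 only just so. Tec, a kinase downstream of antigen receptors, read 10.998, 11.12 and 10.84 with wild type and 10.87, 10.65, 10.37 and 10.56 with G183S, with replicate 1 inside the wild-type range. Pik3ap1 (BCAP), an adaptor for phosphoinositide 3-kinase, read 10.57, 10.40 and 10.43 with wild type and 10.23, 10.23, 9.81 and 10.26 with G183S. Of 26 mature B-cell surface genes 2, Slamf6 and Fcrla, passed as lower without replicate 1, against 1.51% of all genes, and replicate 1 was below wild type for both. In all 4 G183S arrays, 6 members were below wild type, against 4.17% of all genes, and Cd72 was above it. Cd55, a regulator of complement that is dim here, read 6.02, 5.58 and 7.10 with wild type and 5.50, 5.46, 4.81 and 5.50 with G183S. Of 25 costimulatory and adhesion genes, Cd86, Cd44 and Selplg passed as lower without replicate 1, against 1.51% of all genes, and Icam1 as higher, against 4.07%. Cd44, the hyaluronan receptor, read 10.35, 10.31 and 9.75 with wild type and 10.14, 9.39, 9.28 and 9.36 with G183S. Selplg, the ligand of P-selectin, read 9.998, 9.93 and 9.985 with wild type and 10.24, 9.06, 9.15 and 9.25 with G183S, so that replicate 1 was above and the other 3 below all wild-type arrays. Of 12 MHC class II genes none reached an unadjusted p of 0.05 or passed limma's adjusted p in either fit. Their mean was 9.89, 9.55 and 9.22 with wild type, 10.03, 9.26, 9.06 and 9.20 with G183S, and 8.21, 8.20 and 8.09 with empty vector. Replicate 1 was above all wild-type arrays and the other G183S arrays were near the lowest of them. H2-Eb1 read 9.62, 9.45 and 8.72 with wild type and 9.74, 8.83, 8.62 and 8.54 with G183S. Ciita, the transactivator of these genes, differed by 0.24 ± 0.16 SE.

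Of 26 genes of endoplasmic reticulum folding and stress, 18 were higher with G183S, and without replicate 1, 4 passed as higher, against 4.07% of all genes, and 1, Edem1, as lower, against 1.51%. The list mean was 11.91, 11.86 and 11.93 with wild type and 11.90, 12.02, 12.14 and 12.06 with G183S, replicate 1 inside and the others above the wild-type range. Dnajc3, a co-chaperone induced by the unfolded protein response, read 10.34, 10.21 and 10.54 with wild type and 10.45, 10.79, 10.95 and 10.83 with G183S, with replicate 1 inside the wild-type range. Of 26 genes of the amino-acid response, 2 passed as higher and 2 as lower without replicate 1, against 4.07% and 1.51% of all genes, and the median was -0.10. Psat1, an enzyme of serine synthesis, read 12.34, 12.17 and 11.89 with wild type and 12.09, 11.76, 11.27 and 11.43 with G183S. Of 29 genes of glycolysis and hypoxia, 2 passed as higher without replicate 1, against 4.07% of all genes. Higd1a, a mitochondrial protein induced by hypoxia, read 7.05, 7.09 and 7.01 with wild type and 7.34, 7.59, 7.39 and 7.87 with G183S, so that all 4 arrays were above wild type (log2 difference 0.49 ± 0.12 SE). Of 22 genes of cholesterol synthesis, 19 were lower and 0 passed limma's threshold in either fit, with 1 at an unadjusted p under 0.05, and the list mean was 10.06, 9.61 and 9.38 with wild type and 9.89, 9.38, 9.37 and 9.52 with G183S.

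Markers of other cell types were mostly at low levels. The mean of 24 myeloid genes, 19 of them dim, was between 6.54 and 6.77 with wild type, between 6.64 and 6.95 with G183S and between 6.72 and 6.83 with empty vector. Of these 24 genes 2, Adgre1 (the macrophage marker EMR1) and Mpo, passed as higher without replicate 1, against 4.07% of all genes. Adgre1 read 5.59, 5.85 and 6.03 with wild type, 5.76, 7.16, 7.46 and 7.56 with G183S, and 7.17, 6.88 and 6.27 with empty vector. Mpo read 6.31, 6.19 and 6.85 with wild type, 6.28, 7.31, 7.99 and 7.74 with G183S, and 7.67, 7.41 and 7.12 with empty vector. For both, replicate 1 was inside the wild-type range. The part of other cells in these results was not tested. Means of the 19 T-cell genes ranged from 6.54 to 6.77 with wild type and from 6.55 to 6.71 with G183S, with 17 genes dim and 0 called (limma, 0 at an unadjusted p under 0.05), and those of the 21 stromal and endothelial genes from 6.54 to 6.66 and from 6.47 to 6.62. The mean of 14 erythroid and platelet genes was between 6.99 and 7.02 with wild type and between 6.88 and 6.97 with G183S. Without replicate 1, 1 of 14 erythroid or platelet genes, 1 of 21 stromal and endothelial genes and 1 of 22 reference genes passed as higher. The share over all genes was 4.07%. The mean of the 22 reference genes was 12.15, 12.08 and 11.99 with wild type and 12.15, 11.997, 12.06 and 12.05 with G183S. With all arrays 5 of these 22 had an unadjusted p under 0.05 as higher, against 5.08% of all genes, and 0 as lower, against 4.41%.

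**Figure D4:**
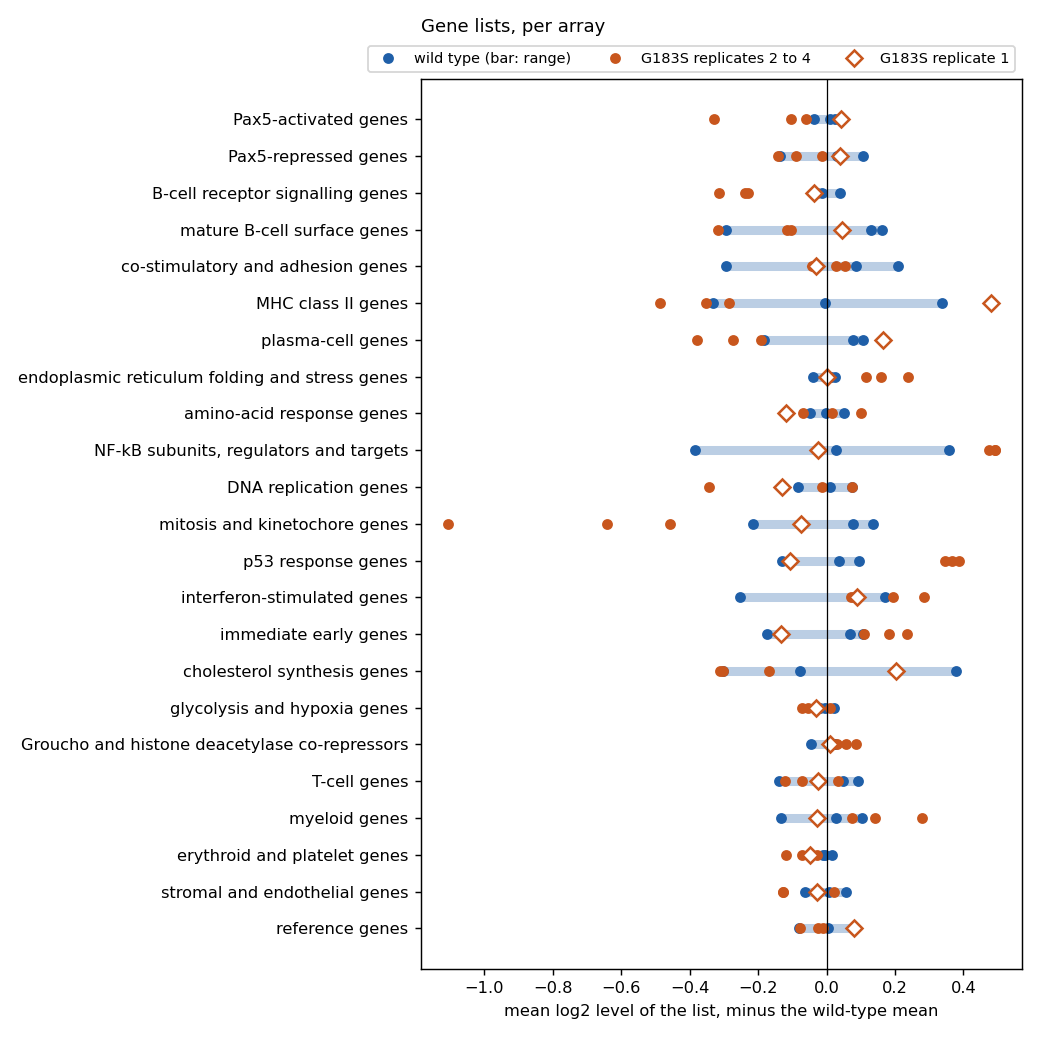
Mean log2 level of the 23 gene lists in each wild-type and G183S array, minus the wild-type mean of that list (horizontal axis); blue points and bars are the 3 wild-type arrays and their range, filled orange points are G183S replicates 2 to 4 and the open diamond is replicate 1. Replicates 2 to 4 all lie below the wild-type range for the mitosis, plasma-cell, B-cell receptor, Pax5-activated and erythroid lists and all above it for the p53, NF-kB, endoplasmic reticulum, immediate early and co-repressor lists; replicate 1 is inside the range for the mitosis list and these last 5, above it for the plasma-cell and Pax5-activated lists and below it for the B-cell receptor and erythroid lists.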

How the data were processed

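Deposited values were log2 expression per probe set; the submitters' processing notes name RMA and Partek, without versions or roles. Scanner files were not used here. Of 34760 probe sets, 21640 had 1 gene symbol in the platform annotation, 1321 several (left out) and 11799 no entry; 21553 symbols matched RefSeq (GRCm38.p6) and 0 changed. The probe set with the highest mean stood for a gene, leaving 19937 genes. limma 3.58.1 (R 4.3.3) was fitted with 1 coefficient per group to all 10 arrays (7 residual, 2.88 prior degrees of freedom) and to 9 without G183S replicate 1, with two-sided p-values and Benjamini-Hochberg adjustment over all genes, called under 0.05; fits were tested on simulated data. No filter was applied to dim genes. Other probe sets of Ighm differed in direction from each other.

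The members, the 23 gene lists (580 genes) and the rules were chosen with earlier results of these data known. Named genes, which leave out predicted genes, olfactory and like receptor families, small RNAs and immunoglobulin or T-cell receptor segments, are Pax5; up to 14 per direction with the largest difference among genes beyond wild type in all 4 G183S arrays at unadjusted p under 0.05; the 10 per direction with the largest difference among those called without replicate 1 that replicate 1 did not share; the 5 per direction farthest from the other G183S arrays in replicate 1 alone; up to 4 per list with the smallest p; and a set of Pax5 targets and plasma-cell genes. The remaining genes of the 27 beyond wild type by 1 log2 unit, and Plk1, Ccnb2, Birc5, Kif20a, Bbc3, Mdm2, Sesn2, Relb, Traf2 and Selplg, were chosen after their values were seen. Lists overlap. Alternatives were leaving out each array, the Pax5 arrays alone, a replicate block, array weights, trended robust or no moderation, median centring, quantile normalization, no dim genes, other probe sets and other minimum sizes. The number of arrays limits the precision. Plots used matplotlib 3.10.9 and tables pandas 2.3.3 and numpy 2.4.6, under Python 3.11.15.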

Additional observations from a re-analysis of the deposited data

Results flagged for a closer look

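In 26 of 147 named genes and lists, 1 G183S array lay far from the other 3, its gap to the nearest being above Dixon's 95% critical value for a group of 4. Chance flags about 1 in 20 groups; over all 19937 genes 1488 (7.46%) met the same rule, 879 of them (4.41%) through replicate 1. The named genes include those chosen for a replicate 1 that differed, so their share is no measure of how often this happens.

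Replicate 1 was the lowest G183S array for Lrrc8e (6.56, the others 9.69 to 10.15), Tmem184a (6.25), Celsr2 (7.39), Amhr2 (6.904), Acod1 (8.07), Renbp (5.79) and Icam1 (10.17, the others 11.61 to 11.72). The same held for the complement-domain gene Susd2 (7.49), Il6ra (9.05), Ndrg1 (8.36), Cystm1 (8.63) and the peptide transporter gene Tap1 (9.69). Among p53 response genes replicate 1 was lowest for Ccng1 (11.81, the others 12.99 to 13.11), Bbc3 (8.68) and Sesn2 (11.33), and the mean of the list was 8.74 against 9.19 to 9.23. Among NF-kB genes it was lowest for Nfkb2 (9.20) and Relb (8.05), and the mean of the list was 8.47 against 8.97 to 8.99. Replicate 1 was the highest for Phlda1 (10.25, the others 8.20 to 8.41), Cd44 (10.14), Selplg (10.24) and Ccnb2 (12.25, the others 11.01 to 11.20). Replicate 3 was the lowest G183S array for Plxnc1 (7.43, the others 9.50 to 9.54), Cd55 (4.81) and Pik3ap1 (9.81), where replicate 1 lay with the other arrays. What sets the arrays apart was not tested.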

How the results depend on the processing

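With all G183S arrays, limma called 0 genes; leaving out 1 array gave 0 to 1113, the replicate block 2, array weights 2752 and no moderation 1, and the settings of centring, quantile normalization, dim genes, probe sets, trend and only the Pax5 arrays gave 0. Without replicate 1 the count of 1113 ranged from 52 to 3068 over further arrays left out, and was 163 with only the Pax5 arrays, 0 with the replicate block (2821 at an unadjusted p under 0.05), 5231 with array weights and 0 without moderation (3845 unadjusted); the other settings gave 957 to 1261. The count of genes beyond wild type in all 4 G183S arrays by 1 log2 unit was 27, from 21 to 177 with 1 array left out, 1295 with no minimum, 123 with a minimum of 0.5, and 19 to 28 otherwise. The cause was not tested. The labels do not say whether replicate numbers pair the samples. Deviations of same-numbered arrays correlated from -0.16 to 0.51. Between wild type and G183S these correlations were 0.51, -0.16 and 0.46 for replicates 1, 2 and 3. Arrays of these groups with different numbers correlated from -0.58 to 0.27. A shared batch was not tested. The 2 genes called with the block were St3gal6 (-1.15) and Traf5 (-1.48, limma adjusted p = 0.0262 for both).

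Of 124 named genes, 81 passed without replicate 1 and 91 with array weights, against 1113 and 2752 of all 19937 genes. Many named genes were chosen by their differences in these same arrays, so their counts are no measure of robustness. The log2 difference turned for 10 genes, none of which had passed. With each array left out in turn it ranged from -0.27 to 0.32 for Phlpp1, from -0.051 to 0.16 for Tle4, from -0.84 to 0.21 for Phlda1, from -0.0096 to 0.47 for Cystm1, from -0.035 to 0.24 for H2-Ob, from -0.033 to 0.0076 for Ighm, from -0.13 to 0.16 for Fcgr2b, from -0.088 to 0.67 for Arhgdib, from -0.33 to 0.40 for Ocm and from -0.30 to 0.49 for Pcp4. The replicate block gave -0.0225 for H2-Ob, array weights gave -0.13 for Ocm, 0.34 for Phlpp1 and 0.077 for Fcgr2b, and quantile normalization gave 0.0056 for Ighm. Without scanner files no level could be called absent, and dim genes, 9968 of 19937, carry compressed differences.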
